A study of Mus musculus with 8 samples.

Results

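The 7 anion transporter genes examined here handle citrate, sulfate, oxalate and lactate in the renal tubule: *Slc13a1*, *Slc13a2*, *Slc13a3*, *Slc26a1*, *Slc26a6*, *Slc5a8* and *Slc5a12*. They were chosen by symbol, for transporting anions that bear on urinary calcium stones, and matched by Ensembl identifier, which found 7 of 7 among the 55401 genes listed for each kidney. All 7 passed the filter on low counts. RNA-Seq had been performed on whole kidneys of 4 control and 4 SIK mutant mice, to ask what loss of salt-inducible kinases (SIKs) does to renal gene expression. Per the labels, all 8 mice carried floxed *Sik1*, *Sik2* and *Sik3* alleles, and the mutants also carried Six2-Cre. The study's text describes mutants with 1 floxed and 1 wild-type *Sik1* allele, so the group is called SIK mutant here. Controls had no Cre. The Six2 promoter drives Cre in nephron progenitors, so nephron epithelium is recombined while collecting duct, stromal, endothelial and immune cells of the same kidney are not. The labels give neither age, sex, litter nor batch, and the study's methods state that both sexes were used.

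The kidney filters small organic and inorganic anions freely, and the proximal tubule recovers most of the filtered sulfate, citrate and lactate. Sodium-coupled carriers of the SLC13 family take up sulfate, or citrate and other dicarboxylates, while exchangers of the SLC26 family swap sulfate or oxalate for chloride, bicarbonate or formate. Carriers of the SLC5 family recover lactate and other monocarboxylates together with sodium. Urinary citrate keeps calcium in solution, whereas oxalate forms poorly soluble crystals with it.

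Depth was 10179648 to 10925100 expected counts per kidney, and 3 counts, taken as the smallest detectable level, corresponded to 0.263 to 0.304 CPM (counts divided by library size after TMM scaling). Of the targeted genes, *Sik3* was 58.6 to 66.5 CPM in controls and 33.7 to 43.1 CPM in mutants (log2 fold change -0.67, edgeR FDR 0.0697), and *Sik2* was 7.97 to 9.95 and 4.50 to 9.30 CPM. *Sik1* was not lower in mutants. Every mutant lay above every control, at 43.4 to 54.1 CPM against 36.8 to 43.1 CPM (log2 fold change 0.31, edgeR FDR 0.601). Counts over a whole gene include reads outside a deleted stretch and from cells without Cre. Control 3 and control 4 stood apart from the other 6 kidneys. They held *Xist* at 260.5 and 298 CPM, against at most 0.494 CPM in the others, and almost no Y-linked reads. By these transcripts both read as female and the other 6 kidneys as male, although the labels give no sex. Control 3 and control 4 lay at 43.5 and 45.2 on a first principal component (37.1% of variance). The others lay between -33.7 and 1.76 on it. Each comparison is therefore given over all 8 kidneys and over the 6 with Y-linked reads, which are control 1, control 2 and the 4 mutants. Summed markers of the proximal tubule were 13712 to 20237 CPM in controls and 14311 to 17698 CPM in mutants.

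None of the 7 transporters passed the test between genotypes, and *Slc13a1* stood nearest to doing so. In edgeR's quasi-likelihood test with Benjamini-Hochberg adjustment, 0 of 7 members and 0 of 14326 genes (0%) had an FDR under 0.05. At an unadjusted p under 0.05 the members numbered 1 of 7, beside 911 of all genes (6.36%, made up of 2.76% higher and 3.59% lower in mutants). *Slc13a1* was also the 1 member whose groups did not overlap, against 1.65% of all genes not overlapping with mutants higher and 2.39% with mutants lower. The median log2 fold change was -0.06 over the members and -0.0038 over all genes tested, with 3 members above 0 and 4 below, where 49.2% of all genes lay above 0. Because whole kidneys were sequenced, fewer cells of a type and less RNA per cell cannot be told apart for any of these genes.

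**Figure D1:**
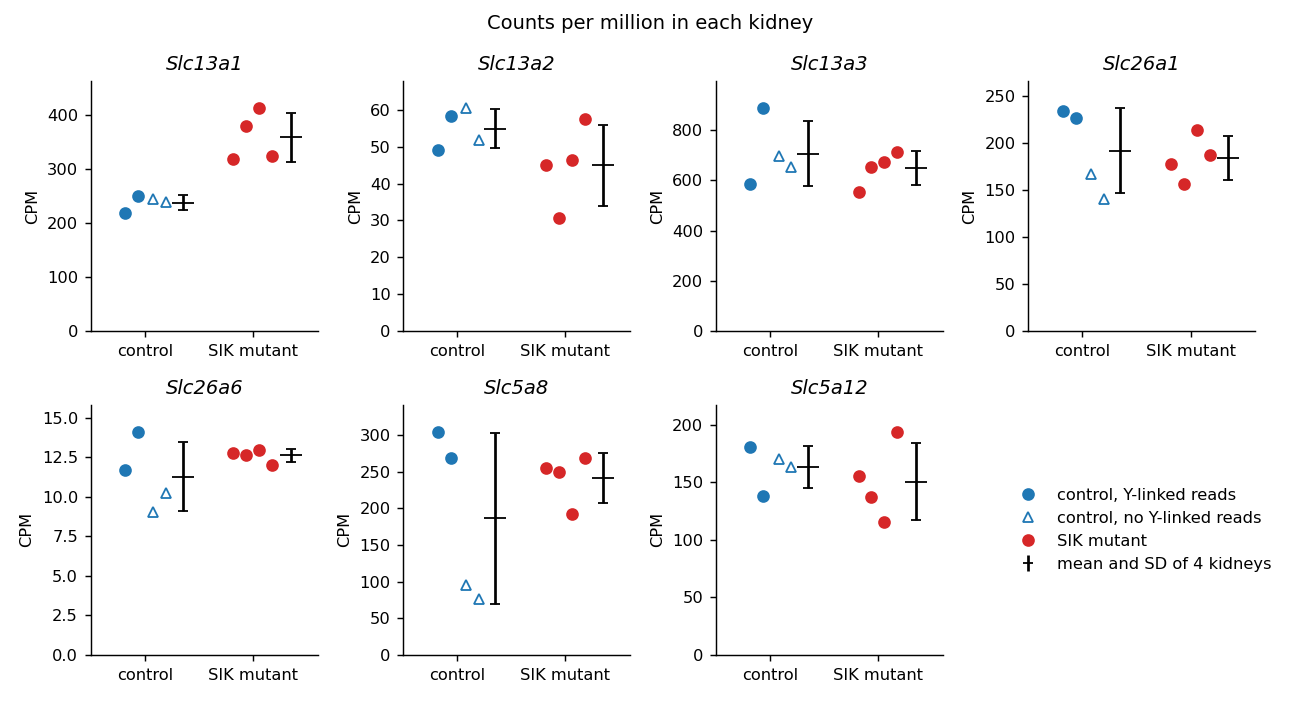
CPM of each transporter in each kidney (vertical axis, linear from 0), with controls in blue and SIK mutants in red; open triangles mark the 2 controls without Y-linked reads, and bars show the mean and SD of 4 kidneys. The groups separate for *Slc13a1*, and the open triangles lie lowest for *Slc5a8* and *Slc26a6*.

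*Slc13a1* (ENSMUSG00000029700.11, chr6:24088283-24168092, minus strand, GRCm38) encodes the apical sodium-sulfate cotransporter that reclaims filtered sulfate. Its level was 218, 249, 244 and 239.5 CPM in control 1 to control 4. In SIK mutant 1 to SIK mutant 4 it was 318, 379, 413 and 323 CPM. Every mutant lay above every control, and the controls with and without Y-linked reads were interleaved. Means were 238 ± 13.8 CPM in controls and 358 ± 45.7 CPM in mutants (SD, n = 4 each), a 1.51-fold difference (log2 fold change 0.59, SE 0.11, 95% interval 0.35 to 0.84). In edgeR's quasi-likelihood test its p was 0.000361, at place 20 of all genes, with an FDR of 0.243 over 14326 genes. The two-sided exact permutation test gave p = 0.0286, the smallest that 4 against 4 kidneys allow.

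Over the 6 kidneys with Y-linked reads the *Slc13a1* log2 fold change was 0.63 (SE 0.14, 95% interval 0.32 to 0.93, edgeR FDR 0.186). Mutants lay above both controls without overlap, as was so for 10.3% of all genes, and 6.40% of all genes were higher in mutants at an unadjusted p under 0.05. The exact permutation p was then 0.0667, again the smallest possible with these 6. In DESeq2 the difference passed, at a log2 fold change of 0.60 with an adjusted p of 0.000167 over 8 kidneys, where DESeq2 called 71 of 18344 genes (0.387%). Over the 6 kidneys its DESeq2 log2 fold change was 0.62 with an adjusted p of 0.00167, where 1.19% of genes were called. The higher *Slc13a1* level in mutants is thus larger than the spread between kidneys for the gene on its own, but its call depends on the test used. The sum of 7 fat cell markers, though not each marker, was higher in all 4 mutants than in controls 1, 2 and 4. It was 22.3 to 219 CPM in controls and 166 to 262 CPM in mutants. The adipokine *Adipoq* and the lipid droplet protein *Plin1* were at 0 in control 1. Control 3 held 219 CPM of these fat transcripts, within the mutant range, while its *Slc13a1* level of 244 CPM lay within the control range. This is 1 kidney, and the part of fat tissue in the *Slc13a1* values was not tested.

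**Figure D2:**
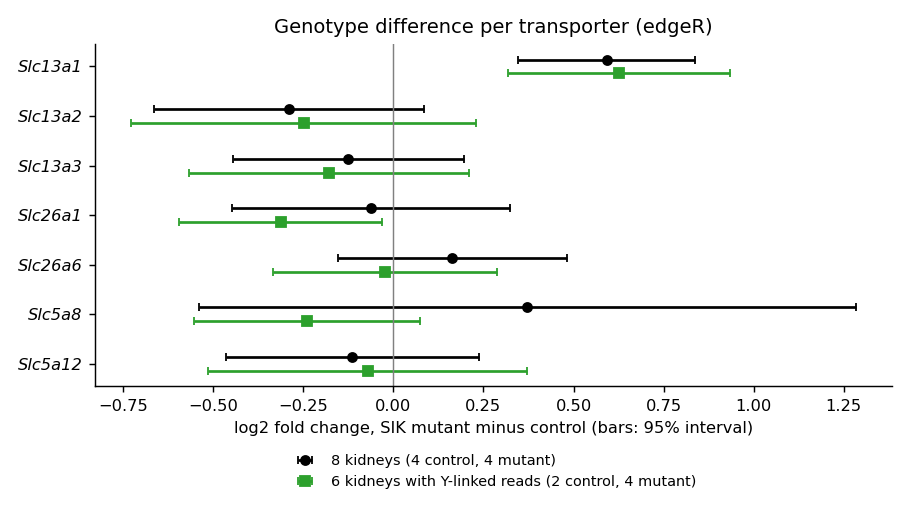
Log2 fold change of each transporter, SIK mutant over control (horizontal axis), with 95% intervals from edgeR for all 8 kidneys and for the 6 with Y-linked reads. The intervals of *Slc13a1* lie above 0 in both fits; *Slc5a8* moves from 0.37 to -0.24, and *Slc26a1* from -0.06 to -0.31.

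*Slc26a1* (ENSMUSG00000046959.16, chr5:108669878-108675569, minus strand) encodes the basolateral exchanger that returns sulfate to the blood in exchange for oxalate or bicarbonate. It was at 234, 226, 167 and 141 CPM in control 1 to control 4, and at 178, 157, 213 and 187 CPM in SIK mutant 1 to SIK mutant 4. The groups overlapped, with the mutants lying between control 2 and control 4. The means of 192 ± 45.4 and 184 ± 23.4 CPM gave a log2 fold change of -0.06 (SE 0.17, 95% interval -0.45 to 0.32, edgeR FDR 0.973, exact permutation p = 0.771). When control 3 and control 4 were set aside, both remaining controls lay above all 4 mutants, as was so for 11.5% of all genes. The log2 fold change there was -0.31 (95% interval -0.60 to -0.03), with an edgeR p of 0.0339, an FDR of 0.407 and an exact permutation p of 0.133. At an unadjusted p under 0.05, 4.74% of all genes were lower in mutants there. A neighbour on the opposite strand, *Idua*, shares 141 of the 4050 exon bases of *Slc26a1* and was at 7.36 to 12.8 CPM.

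*Slc26a6* (ENSMUSG00000023259.16, chr9:108853283-108913049, plus strand) encodes the apical exchanger that trades chloride for oxalate or formate, in gut as well as kidney. It had the fewest reads of the members, at 11.7, 14.1, 9.07 and 10.24 CPM in control 1 to control 4. The mutants were close to one another, at 12.8, 12.7, 12.98 and 12.03 CPM. All 4 mutants lay within the control range, and control 3 and control 4 lay below the other 6 kidneys, as 13.1% of all genes did. The log2 fold change was 0.16 (SE 0.14, 95% interval -0.15 to 0.48, edgeR FDR 0.897) over 8 kidneys and -0.02 (edgeR FDR 0.961) over the 6 with Y-linked reads. With 103 to 145 expected counts per kidney, *Slc26a6* has the largest relative counting error of the members. CPM is not scaled to transcript length. The effective length that RSEM gave *Slc26a6* was 483.5 to 577.5 bases in controls and 586.6 to 632 bases in mutants. With an offset for this length the edgeR log2 fold change over 8 kidneys was -0.03. The part of transcript use in these counts was not tested.

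Neither citrate carrier passed the test between genotypes. *Slc13a2* (ENSMUSG00000001095.5, chr11:78397087-78422217, minus strand) encodes the apical sodium-dicarboxylate cotransporter, which recovers citrate from the tubular fluid. It was at 49.1, 58.3, 60.5 and 51.7 CPM in control 1 to control 4 and at 45.1, 30.8, 46.4 and 57.4 CPM in SIK mutant 1 to SIK mutant 4. SIK mutant 1, 2 and 3 lay below every control, while SIK mutant 4 lay among them. Means were 54.9 ± 5.38 and 44.9 ± 10.94 CPM, a log2 fold change of -0.29 (SE 0.17, 95% interval -0.66 to 0.09, edgeR FDR 0.812, exact permutation p = 0.143). Over the 6 kidneys it was -0.25 (95% interval -0.73 to 0.23, edgeR FDR 0.688). An antisense gene, *Slc13a2os*, shares 632 of the 2412 exon bases of *Slc13a2* and was at 1.09 to 2.23 CPM.

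*Slc13a3* (ENSMUSG00000018459.15, chr2:165405028-165473230, minus strand) encodes the basolateral sodium-dicarboxylate cotransporter, which takes up citrate and alpha-ketoglutarate from the blood side, the latter being the counter-ion of the organic anion transporters. It was at 587, 889, 697 and 654 CPM in control 1 to control 4 and at 554, 652, 672 and 714 CPM in SIK mutant 1 to SIK mutant 4. Control 2 was the highest kidney and the groups overlapped. The log2 fold change was -0.12 (SE 0.14, 95% interval -0.45 to 0.20, edgeR FDR 0.925, exact permutation p = 0.514), and -0.18 (edgeR FDR 0.722) over the 6 kidneys. Without control 2 it was 0.0053.

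The lactate carriers followed different patterns. *Slc5a8* (ENSMUSG00000020062.7, chr10:88885992-88929515, plus strand) encodes the high-affinity sodium-coupled monocarboxylate transporter of the late proximal tubule. It was at 304 and 268 CPM in control 1 and control 2, and at 95.5 and 76.1 CPM in control 3 and control 4. The mutants were at 255, 249, 191 and 268 CPM. The 2 controls without Y-linked reads thus lay below all 6 other kidneys, as was so for 13.1% of all genes, while 10.7% lay above. Their mean of 85.8 CPM was 0.30 times the mean of the other 2 controls, 286 CPM. The spread among controls (186 ± 117 CPM) left the genotype comparison wide, with a log2 fold change of 0.37 (SE 0.41, 95% interval -0.54 to 1.28, edgeR FDR 0.917, exact permutation p = 0.429). Over the 6 kidneys the sign was the opposite, -0.24 (95% interval -0.55 to 0.07, edgeR FDR 0.549, exact permutation p = 0.2). Of 3 markers of the late proximal tubule, 2 were also lowest in control 3 and control 4 and 1 was highest there, and the list summed to 1184 and 935 CPM there and to 1858 to 2689 CPM in the other 6 kidneys. *Slc7a13*, an amino acid transporter of that segment, was at 2.29 and 2.28 CPM in control 3 and control 4 and at 363 to 652 CPM in the other 6 kidneys. *Slc6a18*, another amino acid transporter, went the other way, at 768 and 586 CPM in these controls and 387 to 449 CPM elsewhere. Their part in the *Slc5a8* values was not tested.

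*Slc5a12* (ENSMUSG00000041644.14, chr2:110597298-110647779, plus strand), the low-affinity lactate carrier of the early proximal tubule, showed no such split. It was at 181, 138, 170.0 and 163 CPM in control 1 to control 4 and at 155, 137, 116 and 194 CPM in SIK mutant 1 to SIK mutant 4. The mutants spanned a wider range than the controls and enclosed them. The log2 fold change was -0.11 (SE 0.16, 95% interval -0.47 to 0.24, edgeR FDR 0.940, exact permutation p = 0.514), and -0.07 (edgeR FDR 0.912) over the 6 kidneys.

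Levels per unit of transcript length were compared as TPM, a level scaled to length and library total. By control mean, the basolateral citrate carrier *Slc13a3* was highest and the oxalate exchanger *Slc26a6* lowest. Control means were 228 ± 43.6 TPM for *Slc13a3*, 119 ± 17.7 for *Slc13a1*, 61.0 ± 10.6 for *Slc5a12*, 53.4 ± 8.01 for *Slc26a1*, 35.2 ± 19.7 for *Slc5a8*, 25.4 ± 3.99 for *Slc13a2* and 21.4 ± 2.98 for *Slc26a6*. *Slc13a1* lay above *Slc5a12* without overlap over the 8 kidneys (93.3 to 208 against 46.0 to 73.6 TPM), whereas the ranges of all other neighbours in this order overlapped. In mutants the TPM means were 222 ± 19.2 for *Slc13a3* and 186 ± 22.3 for *Slc13a1*. Those of *Slc13a2* and *Slc26a6* were 22.1 ± 4.23 and 22.7 ± 1.78 in mutants, the reverse of their order in controls. The TPM of *Slc26a6* rests on an effective length of 483.5 to 632 bases, although 8 of its 10 annotated transcripts are 1799 to 4362 bases long, so its place in the order depends on how RSEM shared reads among transcripts.

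**Figure D3:**
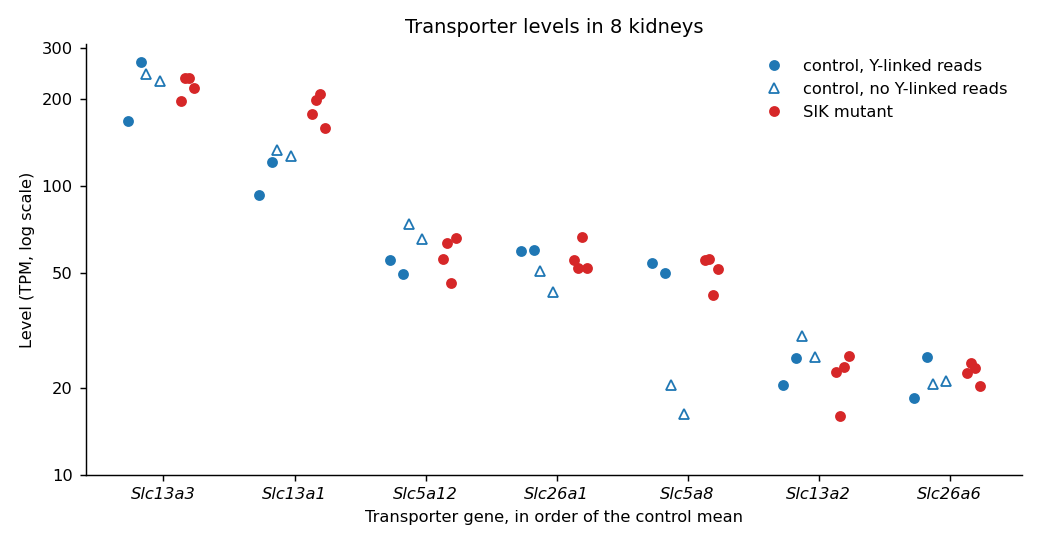
TPM of the 7 transporters in each of the 8 kidneys (logarithmic axis), ordered by control mean. *Slc13a3* and *Slc13a1* lie above the others, and *Slc5a8* has the widest spread, 16.2 to 55.8 TPM.

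The genes whose kidney-to-kidney pattern lay nearest to *Slc13a1* and *Slc5a8*, the members with the largest SD of log2(TPM + 1), were sought among 8951 genes with a mean of at least 5 TPM. Distance was the root mean square difference of log2(TPM + 1), centred on its mean over the 8 kidneys. Nearest to *Slc13a1* were *Insig1*, a brake on sterol synthesis (0.10), *Acly*, which splits cytosolic citrate into acetyl-CoA and oxaloacetate (0.11), and *Alyref*, an mRNA export adaptor (0.13). *Insig1* was at 14.1 to 16.9 TPM in controls and 24.0 to 30.2 TPM in mutants. Nearest to *Slc5a8* were *Treh*, the brush-border trehalase (0.13), *Slco3a1*, an organic anion transporter (0.16), and *Crot*, a peroxisomal carnitine acyltransferase (0.17). *Treh* was at 22.8 and 22.3 TPM in control 3 and control 4 and at 47.7 to 72.6 TPM in the other kidneys. These are descriptions over 8 kidneys that share libraries, and they were not tested.

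**Figure D4:**
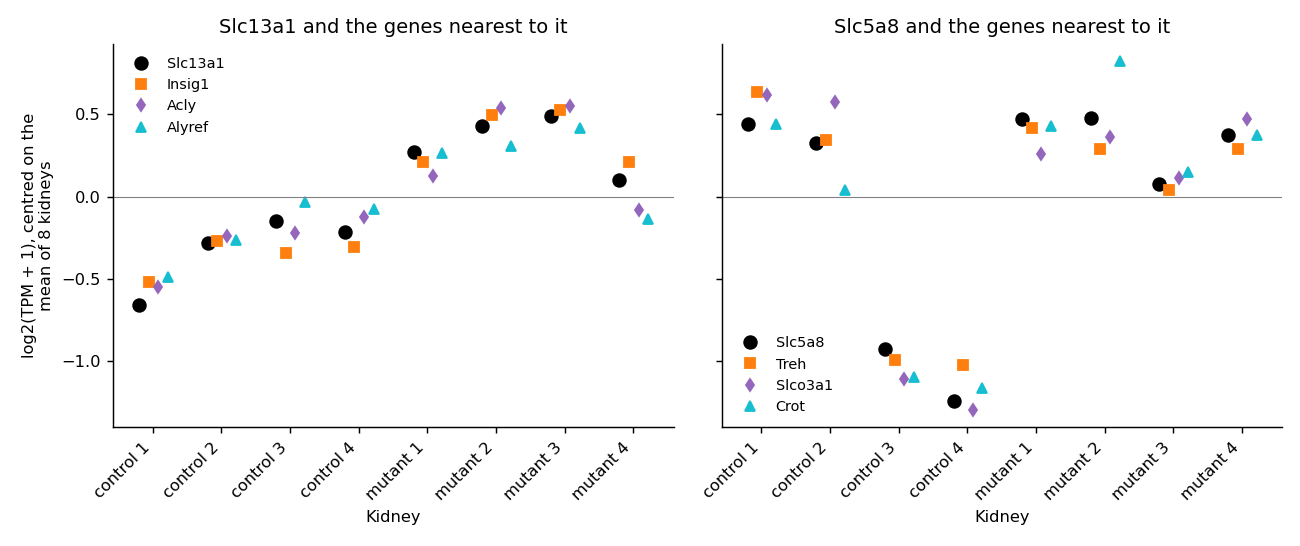
Log2(TPM + 1), centred on the mean of the 8 kidneys (vertical axis), of *Slc13a1* (left) and *Slc5a8* (right) and of the 3 genes nearest to each, by kidney. *Slc13a1* and its neighbours lie lower in controls than in most mutants, and *Slc5a8* and its neighbours are lowest in control 3 and control 4.

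RefSeq promoter windows (GRCm38.p6, 250 bases before to 50 after the start) were at hand for 5 of the 7 members and for 5 of the 6 genes nearest to *Slc13a1* and *Slc5a8*. No window was at hand for *Slc13a1* and *Slc5a12*. The 3 windows shown are those of the most abundant member, of the most variable member and of the gene nearest to *Slc13a1*. Capitals mark matches on either strand to TGACG, the core of the cAMP response element that CREB binds (in 20.8% of 32851 promoters), or to the E-box CACGTG (7.15%).
*Slc13a3*, chr2:165473148-165473447, minus strand: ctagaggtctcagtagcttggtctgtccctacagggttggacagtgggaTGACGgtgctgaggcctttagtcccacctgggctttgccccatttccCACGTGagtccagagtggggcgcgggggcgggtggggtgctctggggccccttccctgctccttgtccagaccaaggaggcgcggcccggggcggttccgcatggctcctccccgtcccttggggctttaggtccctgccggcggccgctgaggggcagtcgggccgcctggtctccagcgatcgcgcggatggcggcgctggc
*Slc5a8*, chr10:88885742-88886041, plus strand: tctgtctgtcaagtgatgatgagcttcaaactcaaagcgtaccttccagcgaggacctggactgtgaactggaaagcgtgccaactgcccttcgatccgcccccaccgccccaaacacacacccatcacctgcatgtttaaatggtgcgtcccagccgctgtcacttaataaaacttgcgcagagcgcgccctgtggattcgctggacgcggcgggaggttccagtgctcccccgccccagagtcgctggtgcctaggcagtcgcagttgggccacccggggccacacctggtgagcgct
*Insig1*, chr5:28071162-28071461, plus strand: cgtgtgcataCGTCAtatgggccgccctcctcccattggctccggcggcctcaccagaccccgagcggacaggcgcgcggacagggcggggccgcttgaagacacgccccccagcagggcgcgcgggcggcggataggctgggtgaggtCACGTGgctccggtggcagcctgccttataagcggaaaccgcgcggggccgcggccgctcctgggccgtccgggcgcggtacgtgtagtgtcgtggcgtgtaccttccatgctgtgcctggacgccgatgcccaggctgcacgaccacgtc
The *Slc13a3* and *Insig1* windows each hold 1 match to each motif (the first of *Insig1* is on the minus strand), and the *Slc5a8* window holds none. The full cAMP response element TGACGTCA (1.79% of promoters), TTCNNNGAA of STAT5 (8.3%), GTTAAT of HNF1 (7.1%) and TCACNCCAC, a sterol regulatory element (1.24%), were in none of these windows. TGTTCT, bound by the androgen receptor (19.0%), was also in none of them. Among the member windows not shown, the *Slc26a1* window chr5:108674747-108675046 held TGTTCT on the minus strand and CACGTG. A match says only that these letters are in the window.

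Around the carriers, 59 genes of citrate, sulfate, oxalate and lactate handling and of the apical scaffold and proton exchange were listed, and 52 passed the filter. In edgeR's test with Benjamini-Hochberg adjustment 0 of 52 had an FDR under 0.05 over 8 kidneys (0% of all genes) and 0 over the 6 kidneys (0.143%), and at an unadjusted p under 0.05 over 8 kidneys 2 were higher and 5 lower in mutants, beside 2.76% and 3.59% of all genes. Their median log2 fold change was -0.03, with 23 above 0 and 29 below. By list, 7 of 13 citrate genes, 6 of 11 sulfate genes, 2 of 7 oxalate genes, 5 of 12 lactate genes and 3 of 9 scaffold and proton exchange genes had a fold change above 0. The 7 genes too low to test were *Slc26a3*, *Slc26a5*, *Slc26a8*, *Slc26a9*, *Agxt*, *Hao1* and *Slc16a8*.

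The groups did not overlap for 6 of the 52 genes, 3 in each direction, beside 1.65% of all genes with mutants higher and 2.39% with mutants lower. None of the 6 passed the test, and their values are given as a description. *Acly* was at 131 ± 9.04 CPM in controls and 186 ± 30.4 in mutants (SD, n = 4), with a log2 fold change of 0.50 (SE 0.12, edgeR FDR 0.456). The mitochondrial citrate carrier *Slc25a1* was at 120.5 ± 7.54 and 137 ± 7.67 CPM (log2 fold change 0.18, edgeR FDR 0.781). *Cdo1*, the cysteine dioxygenase on the route from cysteine to sulfate, was at 110.0 ± 22.0 and 149 ± 19.8 CPM (0.44, edgeR FDR 0.713). Lower in mutants were *Slc16a4*, of the monocarboxylate transporter family, at 133 ± 19.1 and 91.5 ± 6.14 CPM (-0.54, edgeR FDR 0.351), *Ldhb*, a lactate dehydrogenase subunit, at 1193 ± 16.1 and 1031 ± 71.1 CPM (-0.21, edgeR FDR 0.775), and the sulfate cotransporter *Slc13a4* at 5.54 ± 0.65 and 4.13 ± 0.36 CPM (-0.42, edgeR FDR 0.717). Each kept its sign among the 6 kidneys, with log2 fold changes of 0.53 for *Acly* and -0.37 for *Slc16a4*.

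**Figure D5:**
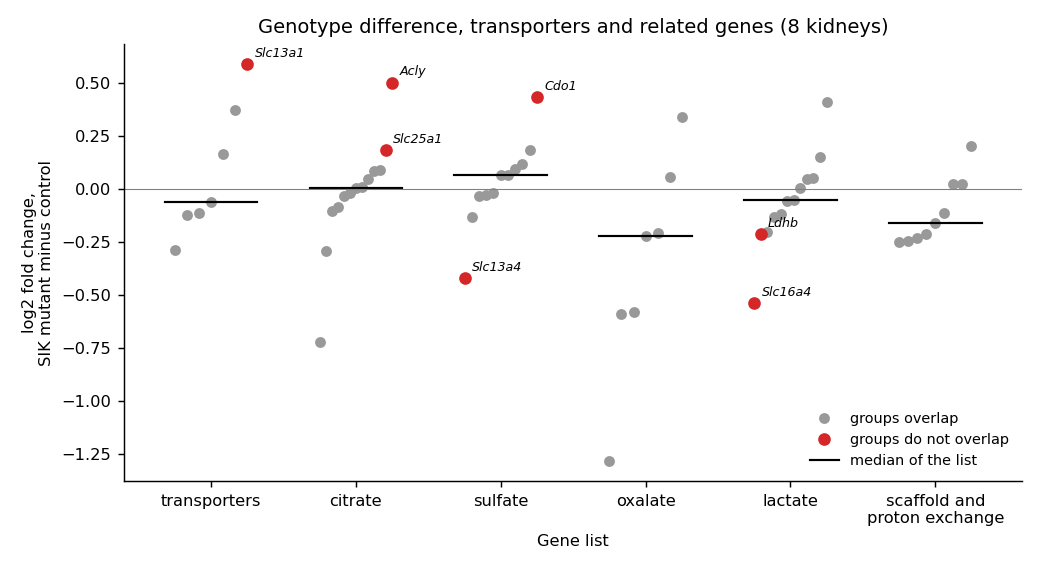
Log2 fold change, SIK mutant over control, of the 7 transporters and of each tested gene in the 5 lists around them (1 point a gene). Genes whose groups do not overlap are named. *Slc13a1*, *Acly*, *Cdo1* and *Slc25a1* lie above 0, and *Slc16a4*, *Slc13a4* and *Ldhb* below it.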

How the data were processed

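Whole-kidney RNA of 4 control and 4 SIK mutant mice was sequenced on a BGISEQ500 instrument. Submitters' processing notes name FastQC, STAR 2.7.2b, RSEM 1.3.0, DESeq2 and the mm10 genome. The use of strand is not given in the sources used here. The authors deposited expected counts, which RSEM estimates per gene without normalisation, in 1 file per kidney without pooling. The TPM values deposited by the authors are scaled by RSEM to transcript length and library total. Effective lengths and posterior SDs of counts come from the same files, and the posterior SD was 0 for all 7 members.

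Of 55401 genes, 54349 matched GENCODE M21 with version and 55141 without. Counts were rounded and tested with edgeR 4.0.16 (TMM, filterByExpr, quasi-likelihood F test) in R 4.3.3 over 14326 genes, with Benjamini-Hochberg adjustment and a threshold of 0.05. Single genes were also tested by two-sided exact permutation of 70 assignments of 8 kidneys, or 15 of 6. The floors of 3 counts cover counting error only, whereas the intervals of fold changes and the p-values come from the spread between these kidneys, which may be partly technical. Chi-square per degree of freedom between replicates was 9.75 to 54.0, so none were duplicates. Alternatives used DESeq2 1.42.0, limma 3.58.1, other scalings and filters, an effective-length offset, a replicate block, a Y-linked covariate and the removal of each kidney. The tests were run on simulated data first. The members, lists and tests were chosen with earlier results of these data known. By rule, the genes named beyond the members were the targeted genes, those of the lists around the carriers that passed the test or whose groups did not overlap, and the 3 nearest in pattern to the most variable members and to any member whose groups did not overlap. *Hao2*, *Ldhd*, *Grhpr* and the marker genes of fat and late proximal tubule were named after their values were seen, *Xist* as a mark of the kidneys that stood apart, and *Idua* and *Slc13a2os* for sharing exon bases with members.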

Additional observations from a re-analysis of the deposited data

How the results depend on the processing

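Over 23 alternatives, *Slc13a1* was higher in mutants in 23, with log2 fold changes of 0.52 to 0.65, and *Slc13a2* and *Slc5a12* were lower in 23. *Slc13a1* passed an adjusted p of 0.05 in 3, all by DESeq2: 0.60 over 8 kidneys (adjusted p 0.000167), 0.62 with the Y-linked covariate (0.00202) and 0.62 over the 6 kidneys with Y-linked reads (0.00167). Members called numbered 0 in edgeR and 1 in those 3 fits. Leaving out 1 kidney gave *Slc13a1* 0.52 to 0.64 (edgeR FDR 0.282 to 0.749). Its FDR was highest when counts were scaled to proximal tubule markers, at a log2 fold change of 0.57 (edgeR p 0.00574, FDR 0.9999).

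Signs turned for 4 members. *Slc13a3* was 0.0053 without control 2 and ranged from -0.20 upward when 1 kidney was left out. *Slc26a1* was 0.0869 by limma-trend with a TPM pseudocount of 1 and 0.0884 with 0.1, and -0.18 to 0.0462 with 1 kidney left out. *Slc26a6* was -0.0338 with the effective-length offset, -0.0507 with the Y-linked covariate, -0.0225 over the 6 kidneys, and -0.0491 and -0.0273 in the same fits by DESeq2. *Slc5a8* was -0.31 with the covariate, -0.24 over the 6 kidneys, and -0.31 and -0.25 by DESeq2, and 0.11 to 0.72 with 1 kidney left out. The causes were not tested. Genotype and Y-linked reads overlap, since the covariate determines 36.6% of the genotype term.

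Of all genes, 0 passed in edgeR, 71 in DESeq2, 2 with voom, 4 with limma-trend at a pseudocount of 1, 5 at 0.1, 9 without a filter, 10 with the Y-linked covariate, 21 over the 6 kidneys, 197 and 185 in those fits by DESeq2, 5 when scaled to proximal tubule markers, and 0 to 1 with 1 kidney left out. Against edgeR, limma-trend on TPM moved the median of all genes by 0.092 with a pseudocount of 1 and by 0.11 with 0.1. With the replicate block 0 genes passed and 657, against 911, had an unadjusted edgeR p under 0.05, and *Slc13a1* was 0.58 (FDR 0.682). Deviations of log CPM from the group mean correlated at -0.29 to 0.05 between same-numbered kidneys, so the numbers were not taken to pair them.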

Other observations

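The 2 controls without Y-linked reads also stood apart in the enzymes around these anions. Of the 52 genes tested in the lists around the carriers, 9 were higher and 13 lower in both than in all 6 other kidneys, where 10.7% and 13.1% of all genes were. *Hao2*, a peroxisomal hydroxy acid oxidase, was at 668 and 598 CPM in control 3 and control 4 and at 87.5 to 183 CPM in the other kidneys. *Ldhd*, the mitochondrial D-lactate dehydrogenase, was at 370 and 315 CPM against 598 to 1542 CPM. *Grhpr*, which clears glyoxylate, the precursor of oxalate, was at 135 and 129.7 CPM against 165 to 226 CPM. These 2 kidneys are both controls, so this contrast has no counterpart among the mutants.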
